A study of Mus musculus with 101 samples.

Results

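The genes described here are 8 antilipolytic genes of fat: the receptor genes Hcar1, Hcar2, Ffar2, Sucnr1, Ptger3, Adora1 and Npy1r and the phosphodiesterase gene Pde3b. They were taken by name, with Entrez gene IDs joined to symbols, from 24475 genes counted in 101 messenger RNA libraries, and all 8 were present in both count tables. The libraries came from epididymal and subcutaneous white fat of male mice of the C57BL/6NTac strain; their ages were not given. In the vector experiment chow-fed wild-type (WT) mice had received a liver-directed AAV8 vector for mouse Inhbe (mInhbe AAV) or for GFP as the control, with 10 libraries per vector in each depot. In the knockout experiment untreated Inhbe knockout (KO) and WT mice were fed a high-fat diet (HFD) or chow. The epididymal libraries numbered 8 for KO on HFD, 8 for WT on HFD, 7 for KO on chow and 8 for WT on chow, and the subcutaneous ones 8, 7, 7 and 8 in the same order. The labels name neither the knockout allele nor the length of the diet. Inhbe encodes the chain of activin E, a ligand of the TGF-beta family that is made in liver, and the study asked how it acts on fat breakdown.

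Fat cells break down stored triglyceride when hormones raise cyclic AMP (cAMP) and protein kinase A becomes active. The 7 receptors signal mainly through inhibitory G proteins, which restrain adenylyl cyclase and so lower cAMP. Hcar1 senses lactate, Hcar2 the ketone body beta-hydroxybutyrate and the drug niacin, Ffar2 acetate and other short-chain fatty acids, and Sucnr1 succinate. Ptger3 encodes the EP3 receptor for prostaglandin E2, Adora1 the A1 receptor for adenosine, and Npy1r the Y1 receptor for neuropeptide Y and peptide YY. Pde3b encodes an enzyme that degrades cAMP in fat cells, and insulin activates it through the kinase Akt.

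The promoters of Hcar1 and Ptger3 are shown because both genes passed the test for the mInhbe vector in epididymal fat. Each is the 250 bases before the start that the RefSeq promoter table uses (GRCm38.p6), 5′ to 3′ on the strand of the gene, at chr5:123880004-123880253 on the minus strand for Hcar1 and at chr3:157566626-157566875 on the plus strand for Ptger3. The start used for Ptger3 is not the outermost one, so the last 55 bases of its window lie inside the span listed for the gene. The capitals mark the single match to the SMAD box CAGAC.
Hcar1: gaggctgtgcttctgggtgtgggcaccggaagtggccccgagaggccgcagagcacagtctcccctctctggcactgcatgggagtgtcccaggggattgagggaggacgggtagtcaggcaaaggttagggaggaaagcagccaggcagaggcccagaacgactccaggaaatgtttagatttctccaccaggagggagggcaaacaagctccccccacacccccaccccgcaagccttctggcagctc
Ptger3: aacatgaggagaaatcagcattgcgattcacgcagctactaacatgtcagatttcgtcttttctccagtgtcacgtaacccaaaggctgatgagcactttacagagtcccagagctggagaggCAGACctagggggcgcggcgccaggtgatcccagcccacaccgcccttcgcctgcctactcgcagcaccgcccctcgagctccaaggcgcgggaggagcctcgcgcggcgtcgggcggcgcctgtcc
On both strands 7 motifs were searched. The letters CAGAC occurred once before Ptger3, 127 bases before the start, and not before Hcar1, and 42.2% of 32851 promoter windows of this length hold them. Neither window held the palindromic SMAD element GTCTAGAC (0.167% of windows), the nuclear receptor half-site AGGTCA (14%), its direct repeat AGGTCANAGGTCA (0.0335%), the cAMP response element TGACGTCA (1.55%), its half-site TGACG (17.8%) or the TATA box letters TATAAA (12.4%). The half-sites AGGTCA and TGACG lie within the longer receptor and cAMP motifs. A match describes letters in a window and is not a binding site.

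Library totals ran from 12970509 to 20170746 estimated counts, and levels are given as CPM, counts scaled to a library total of 1e+06. The log2 fold changes come from fits that also scale the libraries by TMM factors. They can therefore differ from the ratio of mean CPM values, while ranges and overlap are stated in CPM. Inhbe, the targeted gene, had 4 to 232 counts in mInhbe epididymal and 35 to 846 counts in mInhbe subcutaneous libraries, against 0 counts in every GFP library. In the knockout experiment it had at most 1 count in a KO library and at most 5 in a WT library, so fat cannot check the genotype. All 8 adipocyte markers (such as Adipoq and Plin1) were present in every group, with summed levels between 10300 and 37900 CPM. Mouse fat pads can carry neighbouring tissue: lymph node markers summed to at most 157 CPM in epididymal but up to 1780 CPM in subcutaneous libraries, and epididymis markers reached 14000 CPM in epididymal libraries. Liver markers reached 4470 CPM among the WT HFD epididymal libraries, where their mean was 701 CPM and their median 1.66 CPM. Skeletal muscle markers reached 2720 CPM in GFP epididymal and 2280 CPM in GFP subcutaneous libraries. Brown fat markers reached 1070 CPM in GFP epididymal libraries (median 4.65 CPM). The gene profiles of 6 libraries stood apart from their groups (KO HFD epididymal 4, WT HFD epididymal 3, WT HFD subcutaneous 3 and 6, WT chow subcutaneous 1 and GFP epididymal 7), and 4 subcutaneous libraries carried little lymph node transcript (WT HFD 1, 2 and 4 and WT chow 1). Where leaving these libraries out changed a call, both values are given beside the result or among the effects of processing.

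All 8 genes were detected in every library, with the lowest estimated count being 8, for Npy1r in a KO HFD epididymal library. Per kilobase of merged exon, Pde3b had the highest mean in 7 of 12 groups, Sucnr1 in 4 and Hcar1 in 1. Pde3b stood at 71.4 ± 8.14 CPM per kilobase in KO chow subcutaneous fat (SD, n = 7) and at 20.4 ± 5.00 in WT HFD epididymal fat (SD, n = 8). Ptger3 and Npy1r were the 2 lowest in 11 groups; in WT HFD subcutaneous fat Ptger3 stood above Hcar2, with 14.5 ± 2.08 against 11.7 ± 0.885 CPM per kilobase (SD, n = 7), and their libraries overlapped. Most neighbours in these orders overlapped between libraries. In GFP subcutaneous fat, for example, the means per kilobase descended from Hcar1 (63.3 ± 13.1, SD, n = 10) through Pde3b, Adora1, Hcar2, Ffar2 and Sucnr1 (22.3 ± 3.78), with the libraries of each overlapping those of the next, and then dropped without overlap to Ptger3 (2.48 ± 0.667) and Npy1r (1.72 ± 0.398). Length comes from one set of gene models, so these orders carry no test.

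The question of the vector experiment was what mInhbe did to these genes on chow. The lactate receptor gene Hcar1 fell in both depots, the EP3 receptor gene Ptger3 rose in epididymal fat, and the neuropeptide Y receptor gene Npy1r rose in subcutaneous fat. No other member passed the test, which was an adjusted p under 0.05 in edgeR's quasi-likelihood test over all genes. In subcutaneous fat 2 of 8 members were called, where 27.2% of all genes were, and in epididymal fat 2 of 8, where 1.16% were. These are whole-tissue libraries, so fewer cells of a type and less RNA per cell cannot be told apart here or in any comparison that follows.

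**Figure D1:**
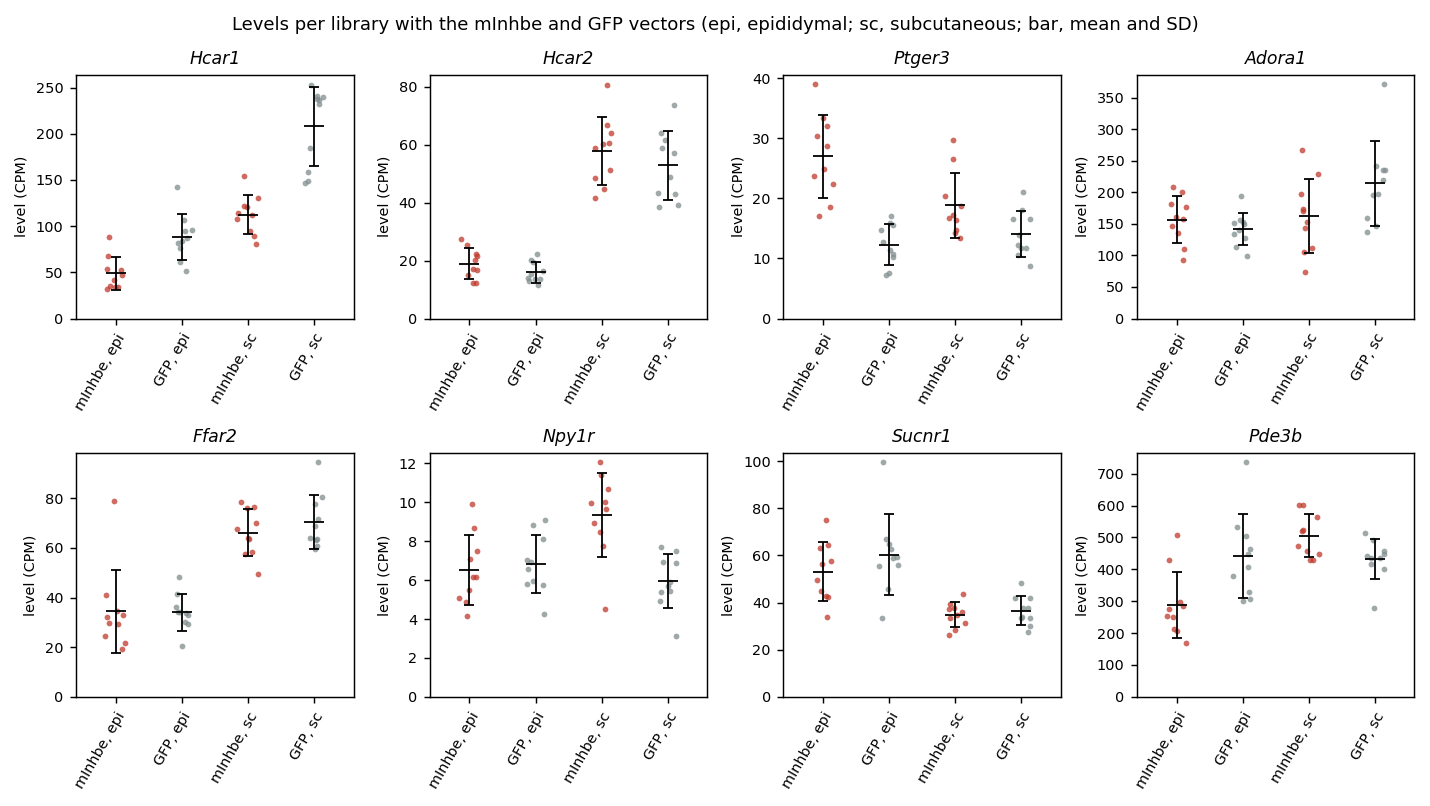
Level of each gene (CPM, linear axis from 0) in every library with the mInhbe and the GFP vector, in epididymal and subcutaneous fat; points are libraries (10 per group) and bars the mean and SD. Hcar1 points sit lower with mInhbe in both depots (48.8 against 88.0 CPM and 112 against 208 CPM on average), and Ptger3 points sit higher with mInhbe in epididymal fat (27.0 against 12.3 CPM).

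In epididymal fat Hcar1 ran from 32.0 to 88.6 CPM with mInhbe (median 44.4), against 51.3 to 142 CPM with GFP (median 85.4). The ranges overlapped, and 9 of 10 mInhbe libraries lay below the GFP mean (log2 fold change -0.86 ± 0.20 SE, adjusted p = 0.0292). In subcutaneous fat Hcar1 ran from 81.1 to 154 CPM with mInhbe (median 113), against 147 to 253 CPM with GFP (median 234). There the ranges overlapped at their edges and all 10 mInhbe libraries lay below the GFP mean (-0.98 ± 0.12, adjusted p = 3.84e-05). The effect did not pass a test of difference between depots (0.11 ± 0.23 for epididymal minus subcutaneous, adjusted p = 0.778). The 8 adipocyte markers summed to 17600 to 29200 CPM with mInhbe and 23400 to 37900 CPM with GFP in subcutaneous fat, where 4 fell (list median -0.48), and to 10300 to 28300 CPM with mInhbe and 16000 to 27400 CPM with GFP in epididymal fat, where none was called (median -0.19); their part in the Hcar1 result was not tested.

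The neighbouring gene Hcar2 lies 11222 bases from Hcar1 on chromosome 5, in the same orientation. Its level averaged 18.9 ± 5.28 CPM with mInhbe and 16.0 ± 3.58 CPM with GFP in epididymal fat (SD, n = 10 each), and 57.7 ± 11.6 and 52.8 ± 11.9 CPM in subcutaneous fat. Neither difference passed the test (0.25 ± 0.17, adjusted p = 0.587, and 0.04 ± 0.12, adjusted p = 0.818). The longest run of identical bases between the transcripts of the pair was 18, which is shorter than the 76 sequenced cycles. The other metabolite receptors did not pass either: Sucnr1 differed by -0.19 ± 0.17 in epididymal and -0.17 ± 0.11 in subcutaneous fat, and Ffar2 by 0.02 ± 0.21 and -0.19 ± 0.09.

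Among the receptors for hormones and local mediators, Ptger3 ran from 17.1 to 39.0 CPM with mInhbe in epididymal fat (median 26.8), against 7.22 to 17.1 CPM with GFP (median 12.1). The ranges touched at one edge and all 10 mInhbe libraries exceeded the GFP mean (1.15 ± 0.19, adjusted p = 0.00152). In subcutaneous fat Ptger3 ran from 13.4 to 29.7 CPM with mInhbe (median 17.0), against 8.77 to 21.0 CPM with GFP (median 13.1), and did not pass (0.31 ± 0.18, adjusted p = 0.19). With a score of lymph node markers in the fit, the subcutaneous value was 0.77 (adjusted p = 0.00897). The epididymal effect was the larger one by 0.82 ± 0.26 (adjusted p = 0.0325). Npy1r ran from 4.52 to 12.1 CPM with mInhbe in subcutaneous fat (median 9.80), against 3.13 to 7.69 CPM with GFP (median 5.82), with overlapping ranges (0.55 ± 0.15, adjusted p = 0.00953). That call ended with the lymph node score in the fit (0.39, adjusted p = 0.261). In these libraries the 12 lymph node markers summed to 979 to 1780 CPM with mInhbe and 727 to 1430 CPM with GFP, and their part in the Npy1r result was not tested further. Adora1 averaged 163 ± 58.7 CPM with mInhbe and 214 ± 67.2 CPM with GFP in subcutaneous fat (SD, n = 10 each) and did not pass (-0.51 ± 0.22, adjusted p = 0.0898); with the lymph node score the value was 0.05.

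Pde3b ran from 169 to 509 CPM with mInhbe in epididymal fat (median 265), against 302 to 737 CPM with GFP (median 427). The ranges overlapped widely and the difference missed the threshold (-0.62 ± 0.19, adjusted p = 0.148), while DESeq2 placed it just past (adjusted p = 0.0493). In subcutaneous fat Pde3b averaged 505 ± 67.3 CPM with mInhbe and 432 ± 63.4 CPM with GFP (SD, n = 10 each, 0.12 ± 0.09, adjusted p = 0.306). The vector's effect on Pde3b differed between depots by -0.76 ± 0.21 for epididymal minus subcutaneous (adjusted p = 0.0197). For vector by depot 2 of 8 members were called, Ptger3 and Pde3b, where 13.5% of all genes were. Npy1r missed the threshold (-0.61 ± 0.22, adjusted p = 0.0557), and passed it with DESeq2 (-0.60, adjusted p = 0.0361) and without the libraries that stood apart (-0.65, adjusted p = 0.0444).

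Genes that make the ligands, pass on the receptor signal or act beside Pde3b were read from 6 lists. In mInhbe subcutaneous fat 26 of 80 list genes were called (32.5%), a share near the 27.2% of all genes, of which 15.8% rose and 11.4% fell. Of 26 ligand supply genes 5 rose and 9 fell. Ptges, which makes prostaglandin E2, fell by 0.86 on the log2 scale (29.8 against 50.4 CPM, adjusted p = 0.000103), and Sdhb, a subunit of the dehydrogenase that consumes succinate, fell by 0.61. Nt5e, the ectoenzyme that releases adenosine, rose by 0.46 (14.4 against 9.74 CPM, adjusted p = 0.0132), and Dpp4, whose enzyme cleaves neuropeptide Y and peptide YY, rose by 0.68 (74.0 against 43.1 CPM). Dpp4 is also 1 of the 6 progenitor and fibroblast markers, of which 4 rose and none fell here (list median 0.34). The inhibitory G protein gene Gnai3 rose by 0.47, and the G protein genes Gnas and Gnao1 and the cyclase gene Adcy9 fell, among 13 tested. Pde3a, the close relative of Pde3b, rose by 0.50 (4.97 against 3.25 CPM), as did Pde7a (0.55) and Pde4d (0.41) among 14 other cAMP phosphodiesterases. On the insulin route 3 of 12 genes rose, the insulin receptor gene Insr among them (0.35, 225 against 165 CPM). The remaining called gene of that route was Abhd15, whose product binds Pde3b in mouse fat cells, and it fell (-0.51 ± 0.18). In mInhbe epididymal fat 1 of 83 list genes was called (1.2%, against 1.16% of all genes), Pde1a (-0.69 ± 0.14, 33.7 against 54.1 CPM, adjusted p = 0.00984), with 12 at an unadjusted p under 0.05 and 4 called by DESeq2.

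The second comparison asked what loss of Inhbe did on a high-fat diet. In epididymal fat 5 of the 8 genes were higher in KO than in WT mice: Hcar1, Sucnr1, Ptger3, Adora1 and Pde3b. In subcutaneous fat Pde3b was higher in KO mice and Ptger3 was lower. The background was large: 37.2% of all genes were called in epididymal and 18.9% in subcutaneous fat.

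**Figure D2:**
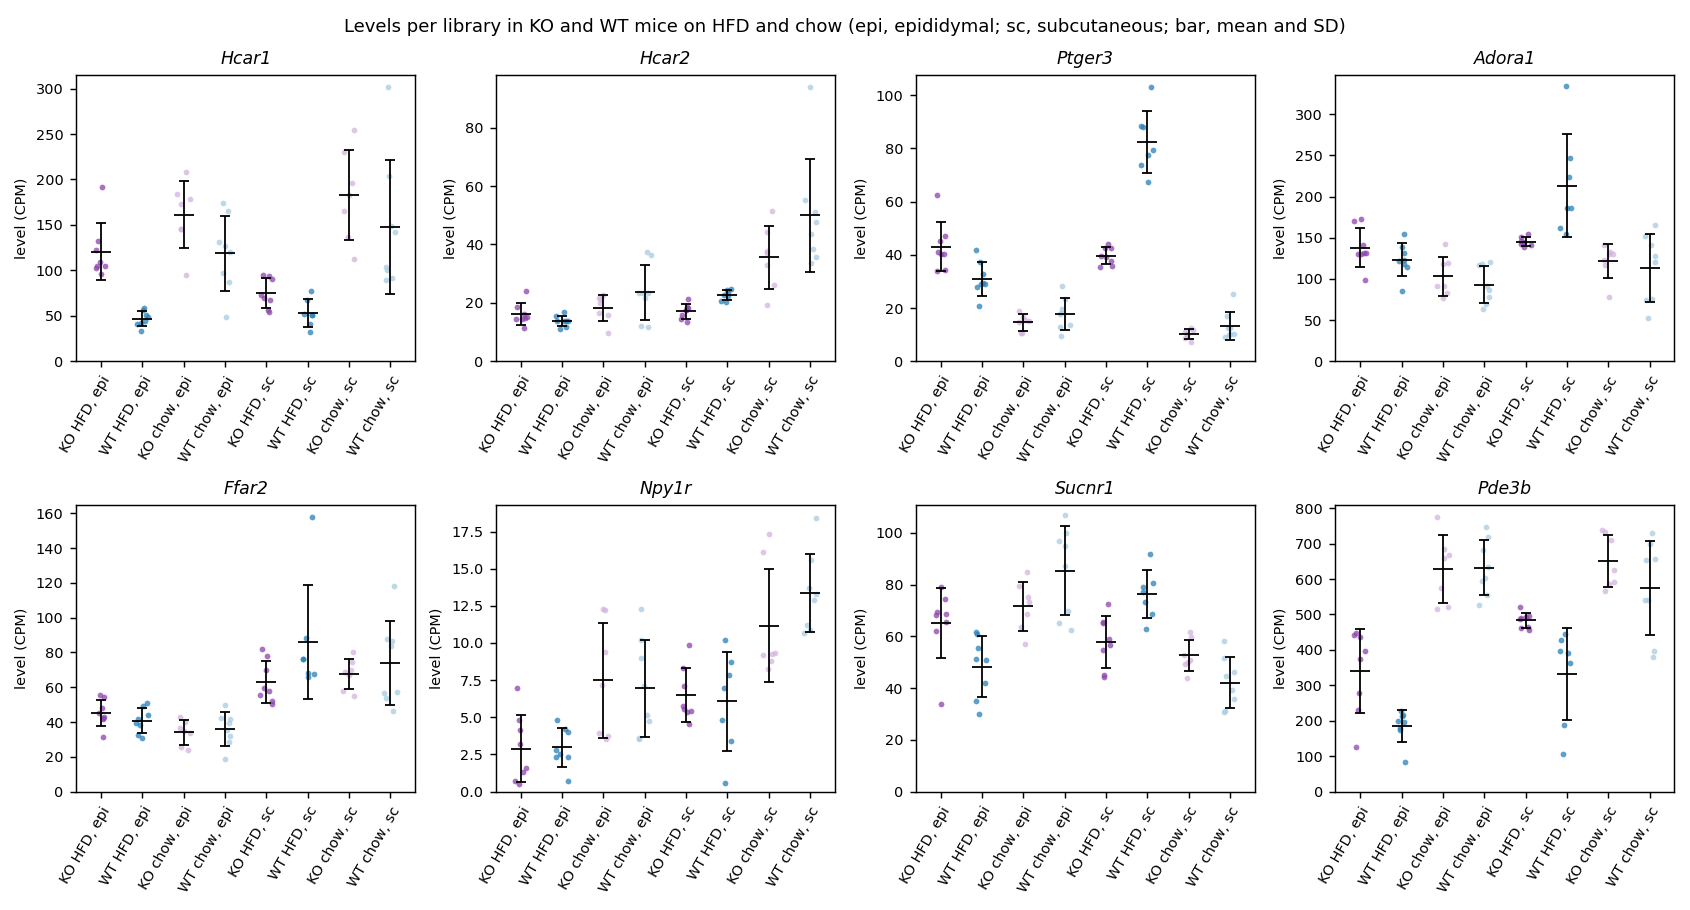
Level of each gene (CPM, linear axis from 0) in every library of the knockout experiment, KO and WT on HFD and on chow, in epididymal and subcutaneous fat; points are libraries (7 or 8 per group) and bars the mean and SD. Hcar1 is higher in KO than in WT epididymal fat on HFD without overlap (120 against 46.9 CPM on average), and Ptger3 is highest in WT HFD subcutaneous fat (82.5 CPM).

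In epididymal fat on HFD Hcar1 ran from 96.0 to 192 CPM in KO mice (median 107), against 33.0 to 58.9 CPM in WT mice (median 46.3). The groups did not overlap (1.57 ± 0.22, adjusted p = 1.45e-06). In subcutaneous fat Hcar1 ran from 54.7 to 95.2 CPM in KO mice (median 71.1), against 32.5 to 77.1 CPM in WT mice (median 51.1). There the groups overlapped and the difference missed the threshold (0.67 ± 0.27, adjusted p = 0.0794). It passed without the libraries that stood apart (0.61, adjusted p = 0.049) and with the lymph node score (0.85, adjusted p = 0.0123).

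Sucnr1 ran from 33.8 to 79.2 CPM in KO epididymal fat on HFD (median 68.3), against 29.9 to 61.5 CPM in WT (median 51.1). The ranges overlapped through 1 KO library, and 7 of 8 KO libraries exceeded the WT mean (0.60 ± 0.17, adjusted p = 0.00526). In subcutaneous fat Sucnr1 averaged 57.9 ± 9.92 CPM in KO (SD, n = 8) and 76.2 ± 9.27 CPM in WT mice (SD, n = 7) and did not pass (-0.24 ± 0.14, adjusted p = 0.246). Hcar2 and Ffar2 did not pass in either depot; Hcar2 differed by 0.42 ± 0.22 in epididymal and -0.24 ± 0.21 in subcutaneous fat, and Ffar2 by 0.32 ± 0.17 and -0.28 ± 0.21.

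Ptger3 was the member whose genotype difference on HFD had opposite signs in the 2 depots, with a call in each. In epididymal fat it ran from 33.8 to 62.6 CPM in KO mice (median 40.7), against 20.6 to 41.8 CPM in WT mice (median 29.3), with overlap (0.68 ± 0.20, adjusted p = 0.00876). In subcutaneous fat it ran from 35.6 to 44.0 CPM in KO mice (median 39.5), against 67.3 to 103 CPM in WT mice (median 79.6). Here the groups did not overlap (-0.90 ± 0.18, adjusted p = 0.000596). The difference between depots was 1.56 ± 0.27 (adjusted p = 0.000101). Adora1 averaged 138 ± 24.2 CPM in KO and 123 ± 19.9 CPM in WT epididymal fat (SD, n = 8 each, 0.35 ± 0.14, adjusted p = 0.0426). This small difference lost its call without the libraries that stood apart (0.31, adjusted p = 0.0848) and without the low-count filter (adjusted p = 0.0774). Adora1 in subcutaneous fat averaged 145 ± 5.12 CPM in KO (SD, n = 8) and 213 ± 62.4 CPM in WT mice (SD, n = 7) and did not pass (-0.40 ± 0.21, adjusted p = 0.19). The exons of Adora1 share 1162 bases with Mybph, a muscle gene on the opposite strand, whose level ranged from 0 to 2.18 CPM over all libraries; whether counting used strand is not given in the sources used here. Npy1r did not pass in either depot (0.09 ± 0.40 and 0.26 ± 0.29).

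Pde3b ran from 125 to 447 CPM in KO epididymal fat on HFD (median 386), against 82.6 to 227 CPM in WT (median 196). The groups overlapped and 7 of 8 KO libraries exceeded the WT mean (1.04 ± 0.20, adjusted p = 0.000105). In subcutaneous fat Pde3b ran from 457 to 522 CPM in KO mice (median 489), against 107 to 446 CPM in WT mice (median 391). The groups did not overlap (0.71 ± 0.21, adjusted p = 0.017), and 2 WT libraries that stood apart were the lowest; without such libraries the value was 0.39 (adjusted p = 0.025). Pde3b's genotype difference did not pass a test between depots (0.33 ± 0.29, adjusted p = 0.477), and passed it without those libraries (0.64, adjusted p = 0.0125).

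The cell markers of epididymal fat moved with these results. The 8 adipocyte markers summed to 21000 to 28200 CPM in KO HFD and 12300 to 19700 CPM in WT HFD libraries; 7 rose and none fell, with a median log2 fold change of 1.01. The 8 macrophage markers (such as Adgre1 and Cd68) summed to 847 to 1940 CPM in KO HFD and 3330 to 4290 CPM in WT HFD libraries; 7 fell, with a median of -1.37. Their part in the differences of Hcar1, Sucnr1, Ptger3, Adora1 and Pde3b was not tested. In subcutaneous fat adipocyte markers summed to 21100 to 26700 CPM in KO HFD and 22300 to 37000 CPM in WT HFD libraries, with 1 of 8 called, and 5 of 8 macrophage markers fell.

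For genotype by depot on HFD 3 of 8 members were called, where 14.6% of all genes were. These were Ptger3, Sucnr1 (0.84 ± 0.22, adjusted p = 0.00656) and Adora1 (0.75 ± 0.26, adjusted p = 0.0431), each with the higher value in epididymal fat. The Adora1 term ended without the libraries that stood apart (0.50, adjusted p = 0.136). The Hcar1 term missed the threshold (0.89 ± 0.34, adjusted p = 0.0668) and passed it with DESeq2 (adjusted p = 0.0469).

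Of the list genes 43 of 84 were called for KO over WT on HFD in epididymal fat (51.2%, against 37.2% of all genes) and 29 of 81 in subcutaneous fat (35.8%, against 18.9%). Over all genes 17.0% rose and 20.2% fell in epididymal fat. Ligand supply genes rose in 11 of 27 and fell in 4 of 27 cases in epididymal fat, with a list median of 0.52 against 0.01 over all genes. The succinate dehydrogenase genes Sdha (1.01, 582 against 329 CPM) and Sdhb (0.88) rose, as did Suclg1 of succinyl-CoA ligase (0.86). Entpd1 (-0.61) and Ada (-0.77), which act on extracellular nucleotides and adenosine, fell. In subcutaneous fat Ptges rose by 1.09 (39.0 against 20.4 CPM) and Hpgd, which inactivates prostaglandin E2, fell by 0.61 (93.5 against 159 CPM). On the insulin route in epididymal fat 6 of 12 genes rose, with Abhd15 at 1.11 (68.5 against 36.1 CPM) and Irs1 at 1.06 (52.7 against 28.4 CPM), and 3 fell. The inhibitory G protein gene Gnai1 rose in epididymal (0.85) and subcutaneous fat (0.64), and Gnai2 fell in both (-0.55 and -0.67 in that order). The related fatty acid receptor gene Ffar4 rose in epididymal fat (1.87 ± 0.21, 17.5 against 5.50 CPM), and the prostaglandin receptor gene Ptger2 fell in epididymal (-0.51) and subcutaneous fat (-1.12).

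On chow no member passed for KO over WT. In epididymal fat 0 of 8 were called by edgeR, where 0.658% of all genes were, with 1 at an unadjusted p under 0.05 and 0 called by DESeq2. In subcutaneous fat 0 of 8 were called by edgeR, where 0.253% were, with 2 at an unadjusted p under 0.05 and 0 called by DESeq2. Hcar1 ran from 94.6 to 208 CPM in KO epididymal fat (median 173), against 48.7 to 174 CPM in WT (median 123), with wide overlap (0.47 ± 0.22, adjusted p = 0.789). In subcutaneous fat it differed by 0.33 ± 0.26, and by 0.65 without the libraries that stood apart (adjusted p = 0.073), since the highest Hcar1 level of WT chow mice (302 CPM) was in 1 of them. Pde3b averaged 628 ± 95.2 CPM in KO (SD, n = 7) and 632 ± 77.6 CPM in WT epididymal fat (SD, n = 8), and the 95% interval of its log2 difference ran from -0.38 to 0.42. Ptger3 differed by -0.26 ± 0.21 in epididymal and -0.34 ± 0.19 in subcutaneous fat. Sucnr1 in subcutaneous fat averaged 52.6 ± 6.19 CPM in KO (SD, n = 7) and 42.1 ± 9.76 CPM in WT mice (SD, n = 8, 0.39 ± 0.14, adjusted p = 0.437). No list gene was called by edgeR in either depot, with 10 of 84 in epididymal and 10 of 81 in subcutaneous fat at an unadjusted p under 0.05, and 0 and 2 called by DESeq2.

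The genotype difference on HFD was set against that on chow within each depot. In epididymal fat 4 of 8 members were called, where 16.5% of all genes were: Hcar1 (1.10 ± 0.31, adjusted p = 0.0142), Pde3b (1.02 ± 0.29, adjusted p = 0.0122), Ptger3 (0.94 ± 0.29, adjusted p = 0.0264) and Sucnr1 (0.83 ± 0.24, adjusted p = 0.016). For each the KO minus WT difference was higher on HFD than on chow. In subcutaneous fat 0 of 8 were called by edgeR, where 2.14% of all genes were, with 2 at an unadjusted p under 0.05 and 1 called by DESeq2. That member was Sucnr1, at -0.62 ± 0.20 by edgeR (adjusted p = 0.102) and -0.63 by DESeq2 (adjusted p = 0.0496). By edgeR Sucnr1 passed without the libraries that stood apart (-0.63, adjusted p = 0.0388). The difference of the genotype effect on chow between depots gave 0 of 8 members by edgeR, where 0% of all genes were called (0 of 15480, with 311 at an unadjusted p under 0.05 and 29 by DESeq2); 1 member had an unadjusted p under 0.05 and DESeq2 called 0.

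The third comparison asked what the high-fat diet did. In WT mice all members except Ffar2 changed in both depots. Hcar1, Hcar2, Npy1r and Pde3b fell in both, Ptger3 and Adora1 rose in both, and Sucnr1 fell in epididymal and rose in subcutaneous fat. In KO mice 5 of 8 members changed in epididymal and 3 of 8 in subcutaneous fat. The background was 38.7% of genes in KO epididymal and 20.7% in KO subcutaneous fat, against 54.1% and 44.1% in the same depots of WT mice. The WT HFD libraries also serve the genotype comparison on HFD, so that these values share samples with those above.

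**Figure D3:**
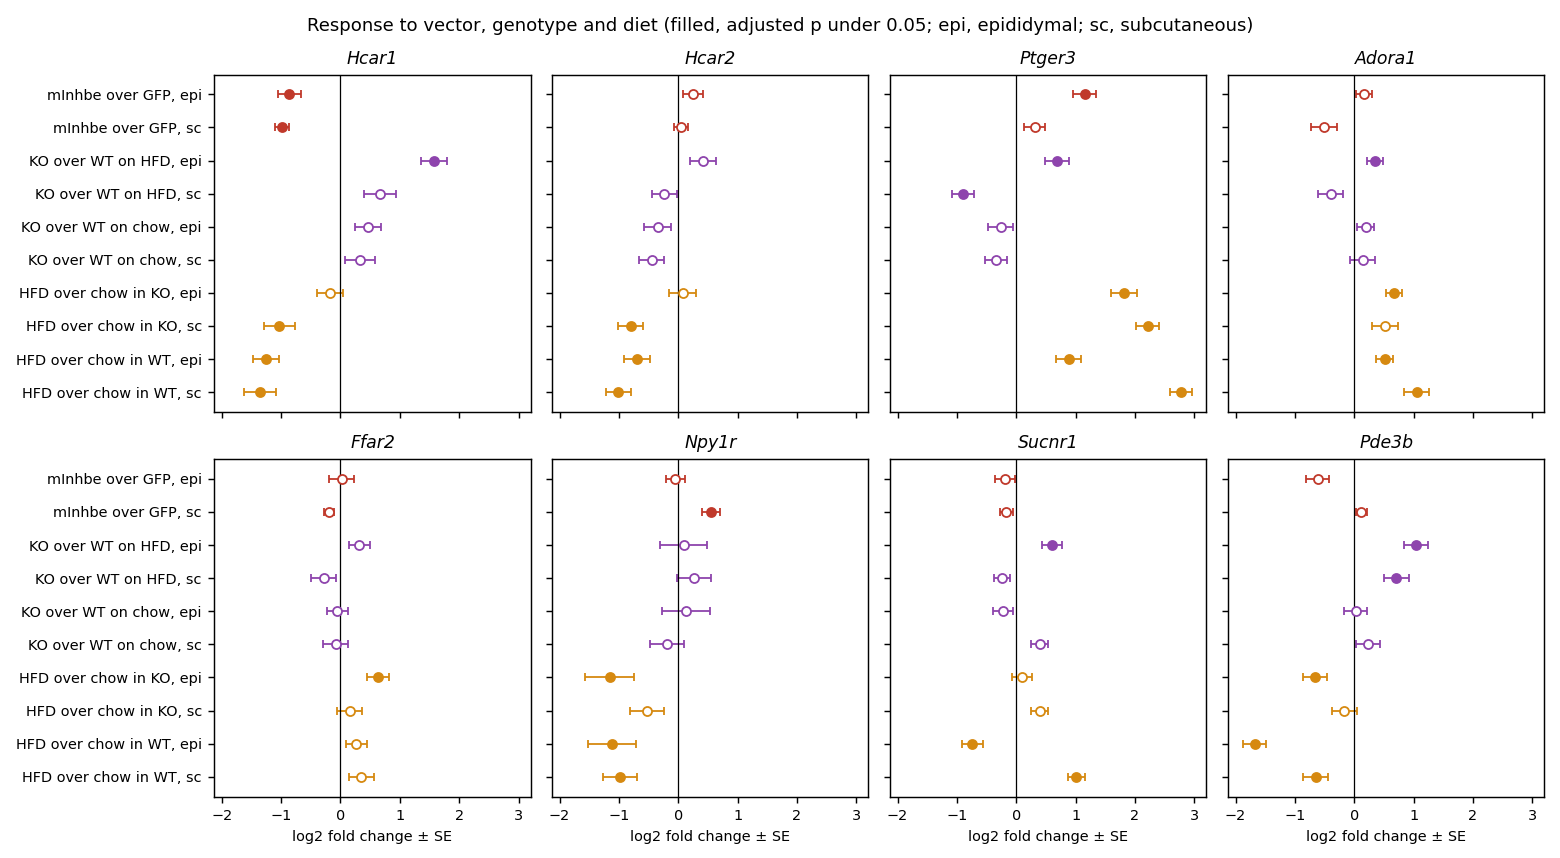
Log2 fold change (x axis, ± SE) of each gene for mInhbe over GFP, KO over WT and HFD over chow (rows), in epididymal (epi) and subcutaneous (sc) fat; filled points passed an adjusted p under 0.05. Ptger3 rises with HFD in all 4 rows for diet (0.88 to 2.77), and Hcar1 falls with mInhbe in both depots (-0.86 and -0.98).

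Hcar1 in WT epididymal fat ran from 33.0 to 58.9 CPM on HFD (median 46.3), against 48.7 to 174 CPM on chow (median 123), with overlap through the lowest chow library (-1.26 ± 0.22, adjusted p = 1.74e-05). In WT subcutaneous fat it ran from 32.5 to 77.1 CPM on HFD (median 51.1), against 89.3 to 302 CPM on chow (median 123). The groups did not overlap (-1.36 ± 0.27, adjusted p = 0.000179); without the libraries that stood apart it also passed (adjusted p = 0.000826), and without those low in lymph node markers it was -0.93 (adjusted p = 0.00874). In KO mice Hcar1 fell in subcutaneous fat (-1.03 ± 0.26, adjusted p = 0.00532), with 54.7 to 95.2 CPM on HFD and 113 to 254 CPM on chow. In KO epididymal fat it did not pass (-0.17 ± 0.22, adjusted p = 0.574), with 96.0 to 192 CPM on HFD and 94.6 to 208 CPM on chow.

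Hcar2 fell in WT mice by 0.70 on the log2 scale in epididymal fat (13.8 ± 1.78 CPM on HFD and 23.6 ± 9.52 CPM on chow, SD, n = 8 each) and by 1.01 in subcutaneous fat (22.7 ± 1.71 CPM, n = 7, and 50.0 ± 19.3 CPM, n = 8). In KO mice it fell in subcutaneous fat (-0.80 ± 0.21, adjusted p = 0.00677) and differed by 0.07 ± 0.23 in epididymal fat. Ffar2, the acetate receptor gene, passed in KO epididymal fat (0.63 ± 0.18, adjusted p = 0.00541), where it averaged 45.1 ± 7.59 CPM on HFD (n = 8) and 34.1 ± 7.05 CPM on chow (n = 7). In WT subcutaneous fat Ffar2 did not pass (0.35 ± 0.21, adjusted p = 0.164), and passed without the libraries low in lymph node markers (0.69, adjusted p = 0.0119).

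Sucnr1 moved in opposite directions in the depots of WT mice. In epididymal fat it ran from 29.9 to 61.5 CPM on HFD (median 51.1), against 62.3 to 107 CPM on chow (median 91.1), without overlap (-0.74 ± 0.17, adjusted p = 0.000485). In subcutaneous fat it ran from 62.7 to 91.7 CPM on HFD (median 77.3), against 30.6 to 58.1 CPM on chow (median 41.9), again without overlap (1.01 ± 0.14, adjusted p = 1.4e-06). The difference between depots was -1.81 ± 0.22 (adjusted p = 2.33e-09). In KO mice Sucnr1 differed by 0.09 ± 0.17 in epididymal fat. In KO subcutaneous fat its value was 0.39 ± 0.14, with an adjusted p of 0.05 that did not fall under the threshold by edgeR and did by DESeq2 (0.0367). By edgeR it passed without the libraries low in lymph node markers (0.39, adjusted p = 0.0442) and without those that stood apart (0.37, adjusted p = 0.0237).

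Ptger3 had the largest diet change among the 8 genes in subcutaneous fat of both genotypes and in KO epididymal fat. In WT epididymal fat Pde3b (-1.68), Hcar1 (-1.26) and Npy1r (-1.12) changed more. In WT subcutaneous fat Ptger3 ran from 67.3 to 103 CPM on HFD (median 79.6), against 9.25 to 25.1 CPM on chow (median 11.4). No libraries overlapped (2.77 ± 0.19, adjusted p = 1.34e-12). In KO subcutaneous fat it ran from 35.6 to 44.0 CPM on HFD (median 39.5), against 7.15 to 12.6 CPM on chow (median 10.2), also without overlap (2.21 ± 0.19, adjusted p = 9.14e-10). In epididymal fat Ptger3 rose by 1.81 ± 0.22 in KO mice (adjusted p = 1.79e-07), with 33.8 to 62.6 CPM on HFD and 10.5 to 19.0 CPM on chow. In WT mice it rose by 0.88 ± 0.21 there (adjusted p = 0.000628), with overlap between 20.6 to 41.8 CPM on HFD and 9.42 to 28.2 CPM on chow. The WT diet effect was lower in epididymal than in subcutaneous fat by 1.95 on the log2 scale (SE 0.27, adjusted p = 6.79e-08).

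Adora1 rose on HFD in WT epididymal (0.51 ± 0.14, adjusted p = 0.00238), WT subcutaneous (1.05 ± 0.21, adjusted p = 0.000226) and KO epididymal fat (0.67 ± 0.14, adjusted p = 0.000431). In WT subcutaneous fat the level averaged 213 ± 62.4 CPM on HFD (n = 7) and 113 ± 41.2 CPM on chow (n = 8). In KO subcutaneous fat Adora1 differed by 0.51 ± 0.22 (adjusted p = 0.0938), and passed without the libraries that stood apart (0.49, adjusted p = 0.0282). Npy1r fell in epididymal fat of KO (-1.16 ± 0.41, adjusted p = 0.0264) and WT mice (-1.12 ± 0.40, adjusted p = 0.0201). In WT subcutaneous fat Npy1r ran from 0.602 to 10.2 CPM on HFD (median 6.99), against 10.7 to 18.4 CPM on chow (median 13.1). Those groups did not overlap (-0.98 ± 0.29, adjusted p = 0.00727), and the call ended without the libraries low in lymph node markers (-0.79, adjusted p = 0.0756). In the same libraries the 5 nerve and Schwann cell markers summed to 99.9 to 202 CPM on HFD and 257 to 389 CPM on chow, with 4 of 5 lower and 1 higher; their part in the Npy1r result was not tested. In KO subcutaneous fat Npy1r differed by -0.53 ± 0.29 (adjusted p = 0.201), with 4 of these 5 markers lower and 1 higher on HFD. In epididymal fat, where Npy1r fell, 1 of 5 was lower in WT mice, and 1 was lower and 1 higher in KO mice.

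Pde3b fell most in WT epididymal fat, where it ran from 82.6 to 227 CPM on HFD (median 196), against 528 to 746 CPM on chow (median 618). The groups did not overlap (-1.68 ± 0.20, adjusted p = 3.84e-08), a 3.19-fold lower fitted level. In KO epididymal fat it ran from 125 to 447 CPM on HFD (median 386), against 516 to 775 CPM on chow (median 660), also without overlap (-0.66 ± 0.20, adjusted p = 0.0118). In WT subcutaneous fat Pde3b was called at -0.65 ± 0.21 (adjusted p = 0.0135), but without the libraries that stood apart it was -0.24 with no call (adjusted p = 0.116). In KO subcutaneous fat all 8 HFD libraries (457 to 522 CPM) lay below all 7 chow libraries (566 to 738 CPM). The fitted difference, after the TMM scaling that CPM lacks, was -0.17 ± 0.21 (adjusted p = 0.605). The WT diet effect on Pde3b was lower in epididymal than in subcutaneous fat (-1.08 ± 0.29, adjusted p = 0.0025).

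Adipocyte markers summed to 12300 to 19700 CPM on HFD and 18300 to 30500 CPM on chow in WT epididymal fat, with 6 of 8 lower and 1 higher. Macrophage markers summed to 3330 to 4290 CPM on HFD and 859 to 1460 CPM on chow there, with 7 of 8 higher and 1 lower. In KO epididymal fat 1 of 8 adipocyte markers was lower and 2 were higher on HFD, and 5 of 8 macrophage markers were higher and 1 was lower. In WT epididymal fat Hcar1, Hcar2, Npy1r, Sucnr1 and Pde3b fell, while Ptger3 (0.88) and Adora1 (0.51) rose. The part of the markers in these falls and rises was not tested. For diet by depot 3 of 8 members were called in WT mice (Ptger3, Sucnr1 and Pde3b), where 33.3% of all genes were. In KO mice 0 of 8 were called by edgeR, where 3.96% of all genes were, with 2 at an unadjusted p under 0.05 and 0 called by DESeq2.

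For HFD over chow the list genes called numbered 34 of 84 in KO (40.5%, against 38.7% of all genes) and 47 of 84 in WT epididymal fat (56.0%, against 54.1%). In subcutaneous fat they numbered 18 of 81 in KO (22.2%, against 20.7%) and 42 of 81 in WT mice (51.9%, against 44.1%). These shares lie near those of all genes. Hpgd, which inactivates prostaglandin E2, rose in subcutaneous fat of KO mice (0.99 ± 0.18, 93.5 against 56.2 CPM) and of WT mice (1.71 ± 0.18, 159 against 54.0 CPM). The lactate transporter gene Slc16a7 fell in KO epididymal (-0.94) and KO subcutaneous fat (-0.64), and in WT epididymal (-1.39, 15.3 against 42.7 CPM) and WT subcutaneous fat (-0.97, 18.8 against 40.9 CPM). Slc16a1, another lactate transporter gene, rose in subcutaneous fat (0.95 in KO and 0.72 in WT mice). On the insulin route 7 of 12 genes fell in WT epididymal fat, where 25.2% of all genes fell, with a list median of -0.45 against -0.02 over all genes. Irs1 (-1.41, 28.4 against 80.2 CPM), Irs2 (-1.27) and Insr (-1.05) led these. Among the other cAMP phosphodiesterases Pde7a rose and Pde1a fell in WT epididymal fat (1.36 and -2.01) and in WT subcutaneous fat (1.31 and -1.15). The cyclase gene Adcy7 rose in WT epididymal fat (2.00 ± 0.13, 166 against 44.5 CPM), and Gnao1 rose in subcutaneous fat of KO (2.03) and WT mice (1.78).

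The last comparison set epididymal against subcutaneous fat within each condition. Ffar2 was lower in epididymal fat in all 6 conditions, and Hcar2 in all except KO on HFD. Sucnr1 was higher in epididymal fat in the 4 chow-fed conditions and lower in WT mice on HFD. The members called were 7 of 8 with mInhbe AAV (64.7% of all genes), 5 of 8 with GFP AAV (64.5%), 4 of 8 in KO on HFD (41.8%), 7 of 8 in WT on HFD (40.8%), 4 of 8 in KO on chow (36%) and 4 of 8 in WT on chow (43.1%). In WT mice on HFD all 7 called members were lower in epididymal fat. In those libraries 7 of 8 adipocyte markers were also lower in epididymal fat (list median -0.90, beside -0.91 for the members), with summed levels of 12300 to 19700 CPM in epididymal and 22300 to 37000 CPM in subcutaneous fat. Macrophage markers were higher in 7 of 8 cases and lower in 1 (median 2.30), with 3330 to 4290 CPM in epididymal and 694 to 1340 CPM in subcutaneous fat. Their part in the members' differences was not tested.

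**Figure D4:**
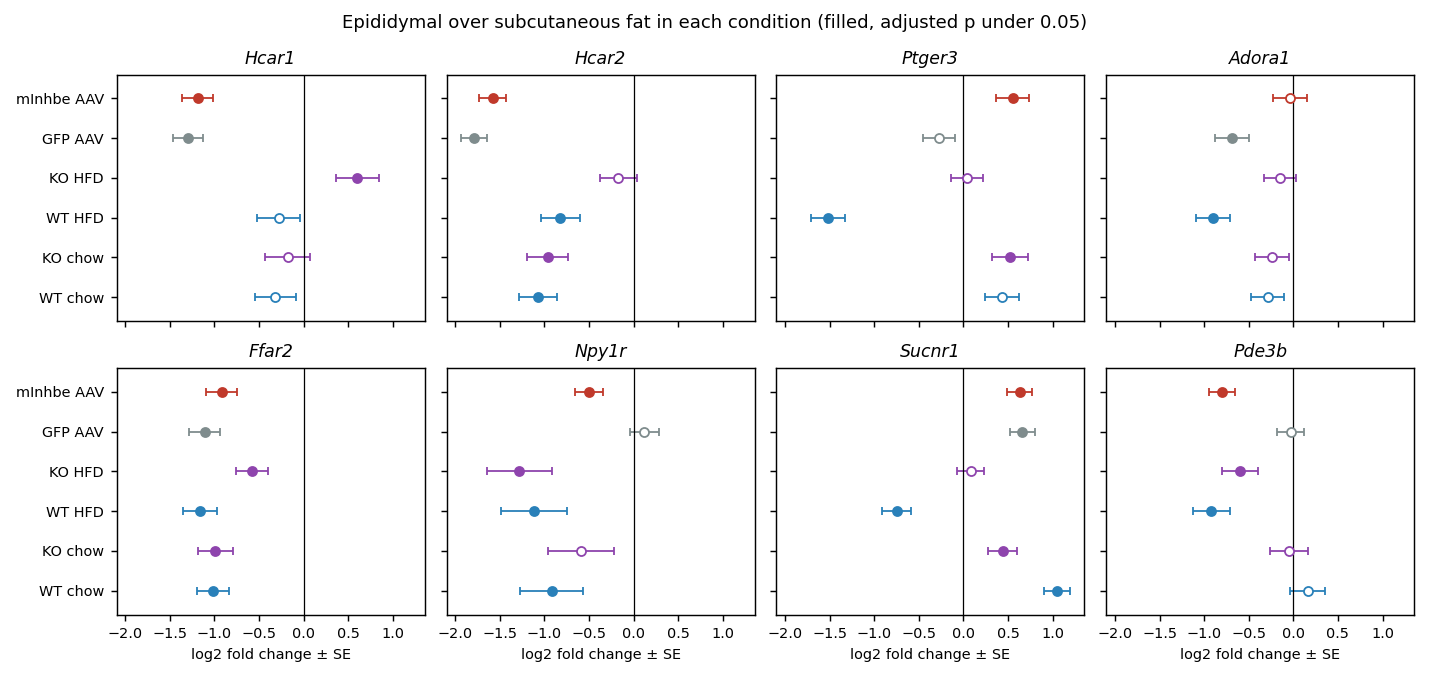
Log2 fold change (x axis, ± SE) of each gene for epididymal over subcutaneous fat in each of 6 conditions (rows); filled points passed an adjusted p under 0.05. Ffar2 lies left of 0 in every condition (-0.58 to -1.16), and Sucnr1 lies left of 0 in WT on HFD (-0.75) and right of 0 on chow (0.44 to 1.05).

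Hcar2 was 3.00-fold lower in epididymal fat with mInhbe (-1.58 ± 0.15, adjusted p = 5.25e-12) and 3.45-fold lower with GFP (-1.79 ± 0.15, adjusted p = 2.56e-13). With GFP it ran from 11.5 to 22.3 CPM in epididymal and from 38.5 to 73.6 CPM in subcutaneous fat, without overlap. All 12 lymph node markers were lower in epididymal fat with mInhbe (46.9 to 133 against 979 to 1780 CPM summed) and with GFP (49.1 to 157 against 727 to 1430 CPM). Adipocyte markers were lower in 4 of 8 cases with mInhbe, where 1 was higher, and in 5 of 8 with GFP. Neutrophil markers were lower in 4 of 6 cases with mInhbe and 2 of 6 with GFP. Macrophage markers were higher in 4 of 8 cases and lower in 1 with GFP, and higher in 1 and lower in 1 with mInhbe. The part of these markers in the Hcar2 difference was not tested. In the knockout experiment the Hcar2 values were -0.82 ± 0.22 in WT on HFD, -0.96 ± 0.23 in KO on chow and -1.07 ± 0.21 in WT on chow, and in KO on HFD -0.17 ± 0.21 with no call (adjusted p = 0.539). Of the 8 adipocyte markers 3 were higher and none lower in epididymal fat of WT on chow, and none was called in KO on chow. Ffar2 with GFP ran from 20.4 to 48.4 CPM in epididymal and from 59.7 to 94.5 CPM in subcutaneous fat, without overlap (-1.11 ± 0.17, adjusted p = 2.73e-07). In WT on HFD its value was -1.16 ± 0.19, and -0.80 without the libraries that stood apart, 1 of which held the highest Ffar2 level of its group (158 CPM).

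Hcar1 was lower in epididymal fat with mInhbe (-1.19 ± 0.17, adjusted p = 5.65e-08) and with GFP (-1.30 ± 0.17, adjusted p = 8.56e-09). In the knockout experiment it passed in KO mice on HFD, with the opposite sign (0.60 ± 0.24, adjusted p = 0.0349). There it ran from 96.0 to 192 CPM in epididymal and from 54.7 to 95.2 CPM in subcutaneous fat, without overlap. Sucnr1 in WT mice on HFD ran from 29.9 to 61.5 CPM in epididymal and from 62.7 to 91.7 CPM in subcutaneous fat, without overlap (-0.75 ± 0.16, adjusted p = 9.79e-05). In WT mice on chow it ran from 62.3 to 107 CPM in epididymal and from 30.6 to 58.1 CPM in subcutaneous fat, again without overlap and with the opposite sign (1.05 ± 0.15, adjusted p = 9.14e-08).

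Ptger3 on HFD differed by 0.04 ± 0.18 between the depots of KO mice (adjusted p = 0.869), and was lower in epididymal than subcutaneous fat of WT mice (-1.52 ± 0.19, adjusted p = 5.06e-09). It was higher in epididymal fat with mInhbe (0.55 ± 0.18, adjusted p = 0.00869) and in KO on chow (0.52 ± 0.20, adjusted p = 0.04, and 0.0536 without the low-count filter). In WT on chow the value was 0.43 ± 0.19 (adjusted p = 0.0577), and 0.48 with a call without the libraries that stood apart (adjusted p = 0.0266). Adora1 passed with GFP (-0.69 ± 0.19, adjusted p = 0.0017) and in WT on HFD (-0.90 ± 0.19, adjusted p = 0.000106). Npy1r passed with mInhbe (-0.50 ± 0.16), in KO on HFD (-1.28 ± 0.36), in WT on HFD (-1.12 ± 0.37) and in WT on chow (-0.92 ± 0.35), lower in epididymal fat each time. Npy1r did not pass with GFP (0.12 ± 0.16, adjusted p = 0.521) or in KO on chow (-0.59 ± 0.37, adjusted p = 0.232). Nerve and Schwann cell markers summed to 48.7 to 65.7 CPM in epididymal and 257 to 389 CPM in subcutaneous fat of WT mice on chow. With GFP they summed to 45.8 to 85.7 and 264 to 571 CPM in that order, and in KO on chow to 38.9 to 64.5 and 175 to 350 CPM. All 5 were lower in epididymal fat in each of these conditions, and their part in the Npy1r values was not tested. Pde3b passed with mInhbe (-0.80 ± 0.15, adjusted p = 1.59e-05), in KO on HFD (-0.60 ± 0.20, adjusted p = 0.0137) and in WT on HFD (-0.92 ± 0.21, adjusted p = 0.0003). With GFP and in both chow-fed groups of the knockout experiment it was within 0.16 of 0 on the log2 scale and did not pass.

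Over all 12 groups each gene had its own order of mean levels. The 2 experiments come from separate tables, so the order across them carries no test, and nearly all neighbours in it overlapped. Hcar1 was highest in GFP subcutaneous fat (208 ± 42.9 CPM, SD, n = 10) and lowest in WT HFD epididymal fat (46.9 ± 8.50 CPM, SD, n = 8), with mInhbe epididymal fat beside it (48.8 ± 18.0 CPM). Hcar2 was highest in mInhbe subcutaneous fat (57.7 ± 11.6 CPM) and lowest in WT HFD epididymal fat (13.8 ± 1.78 CPM). Ptger3 in WT HFD subcutaneous fat (82.5 ± 11.8 CPM, SD, n = 7) was the one group level that no library of the next group reached, the next being KO HFD epididymal fat (43.0 ± 9.15 CPM, SD, n = 8), and KO chow subcutaneous fat was lowest (10.1 ± 1.88 CPM). For Pde3b the 4 chow groups of the knockout experiment were the highest (575 ± 133 to 651 ± 74.2 CPM) and WT HFD epididymal fat was lowest (186 ± 45.6 CPM). As a ratio of the highest to the lowest group mean, the span was 2.3 for Adora1 (214 ± 67.2 CPM in GFP subcutaneous and 93.1 ± 22.7 CPM in WT chow epididymal fat), 2.45 for Sucnr1, 2.52 for Ffar2 and 8.17 for Ptger3, with the other genes between 3.5 and 4.6.

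For each member the genes with the most similar log2 CPM over the 101 libraries, up to 3 per member, are given from 13805 genes. These are correlations over libraries that share group, depot and depth, and they are descriptions. Pde3b was most like Aldh6a1 (Pearson r = 0.946), which acts in valine breakdown, Acss3 (0.942), a mitochondrial acyl-CoA synthetase gene, and Negr1 (0.918). Within groups, with group means removed, r with Aldh6a1 was 0.918. Sucnr1 was most like the caveolin genes Cav1 (0.891) and Cav2 (0.841) and Palmd (0.843). Ptger3 was most like Cela1 (0.886), Mtarc1 (0.882) and Ncan (0.871), and Hcar1 like Slc22a23 (0.835), Ces1f (0.816) and Elmod3 (0.814). Ffar2 was most like Hoxc9 (0.827), a position-marking homeobox gene, and Marchf5 (0.827), and Hcar2 like Ccdc69 (0.836), the myelin gene Mbp (0.832) and Tap2 (0.818). Within groups r for Hcar2 was 0.619 with Ccdc69, but 0.283 with Mbp and 0.206 with Tap2. For the other similar genes named here r within groups was 0.566 (Hcar1 with Ces1f) or higher. Npy1r was most like the potassium channel gene Kcna2 (0.821), the Schwann cell cadherin gene Cdh19 (0.818) and Cadm2 (0.807), and Adora1 like Tmem259 (0.796), Dda1 (0.785) and Acaa1a (0.781). Among the members themselves the closest pair within groups was Hcar1 and Hcar2 (0.801), which gave 0.632 over all libraries, and Hcar2 and Sucnr1 gave -0.424 over all libraries and 0.257 within groups.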

How the data were processed

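Messenger RNA libraries of mouse epididymal and subcutaneous fat were analysed from 2 tables of estimated counts per gene, deposited by the authors unscaled for depth (2.94% of cells not whole within 1e-06). They were rounded to whole numbers before fitting, although the design had assumed raw counts. Per the labels' protocols, libraries were made from 500 ng RNA with adapters carrying molecular identifiers and 14 PCR cycles and sequenced for 76 cycles with paired ends. The genome build was mm10, per the submitters' processing notes. Which aligner and counter were used, and whether strand and identifiers entered the counting, is not given in the sources used here. Gene symbols and places came from RefSeq GRCm38.p6 by Entrez ID (24375 of 24475 matched) and exon lengths from GENCODE. Totals of 12970509 to 20170746 counts put a floor of 3 counts at 0.149 to 0.231 CPM, which covers counting error alone.

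The sample titles number the libraries as biological replicates, and no 2 were copies. Whether both depots came from the same mice is not stated, and depot fits treat them as separate. The labels list 7 WT HFD subcutaneous libraries where the series text gives 8 mice, and were followed. The comparisons were fitted on the whole table with edgeR 4.0.16: filterByExpr by group (minimum count 10, minimum total 15), TMM scaling, the robust quasi-likelihood test and Benjamini-Hochberg adjustment over all genes tested, with calls at an adjusted p under 0.05. Vector, genotype and diet were fitted separately within each depot, and depot comparisons over both depots of an experiment. The SE is the absolute log2 fold change over the square root of F. Replicate numbers were not treated as pairs. Alternatives were RLE size factors, DESeq2 1.42.0, no low-count filter, a replicate block and a lymph node or epididymis score as a covariate; leaving out libraries that stood apart (SD over genes of log2(CPM + 1) from the group median over 0.6) or had under 20 summed CPM of lymph node markers was chosen after seeing the data. The fit was tested on simulated data. R 4.3.3, limma 3.58.1, Python 3.11.15, pandas 2.3.3 and matplotlib 3.10.9 were used.

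The members, lists and tests were chosen with earlier results of these data known. Named genes were the members, Inhbe, up to 3 called genes of each sign by smallest p from each list and comparison, and the 3 genes most correlated with each member among those with a mean of at least 1 CPM. Some genes that this rule takes are not reported here.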

Additional observations from a re-analysis of the deposited data

Results flagged for a closer look

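Over the 8 genes in each of 12 groups, 96 sets of values, 12 had 1 library far from the others by Dixon's criterion, which chance alone meets in about 1 set in 20. The sets share libraries, and some libraries recur. In KO HFD epididymal library 4 Hcar1 was at 192 CPM (next 132) and Ptger3 at 62.6 CPM (next 46.9), both the highest of their group, and Sucnr1 was the lowest at 33.8 CPM (next 62.1). In GFP epididymal library 7 Pde3b was highest at 737 CPM (next 533) and Sucnr1 highest at 99.8 CPM (next 66.9). In GFP subcutaneous library 2 Adora1 was highest at 372 CPM (next 242) and Pde3b lowest at 278 CPM (next 401). In WT HFD subcutaneous library 3 Ffar2 reached 158 CPM (next 88.4), in WT HFD epididymal library 3 Pde3b was lowest at 82.6 CPM (next 175), and in WT chow subcutaneous library 1 Hcar2 reached 94.0 CPM (next 55.4). Ffar2 in mInhbe epididymal library 9 was at 78.9 CPM (next 41.2), and Adora1 in KO chow subcutaneous library 5 was lowest at 77.8 CPM (next 117).

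In 7 tests of a difference between effects, each over the 8 members, an effect differed between diets or depots in 12 cases. No member was called for genotype by diet in subcutaneous fat (2.14% of all genes). The same held for genotype on chow by depot (0%) and for diet in KO mice by depot (3.96%). The KO minus WT difference in epididymal fat was higher on HFD than on chow for Hcar1 (1.10), Ptger3 (0.94), Sucnr1 (0.83) and Pde3b (1.02). These were 4 of 8 members, where 16.5% of all genes were called. On HFD the same difference was higher in epididymal than in subcutaneous fat for Ptger3 (1.56), Adora1 (0.75) and Sucnr1 (0.84). These were 3 of 8, where 14.6% of all genes were called. The Adora1 call ended without the libraries that stood apart and with a replicate block. The mInhbe effect, epididymal minus subcutaneous, was 0.82 for Ptger3 and -0.76 for Pde3b (2 of 8, where 13.5% of all genes were called). Both calls ended with a replicate block. The HFD effect in WT mice, epididymal minus subcutaneous, was -1.95 for Ptger3, -1.81 for Sucnr1 and -1.08 for Pde3b. These were 3 of 8, a share near the 33.3% of all genes called there.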

How the results depend on the processing

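Of 835 recomputed log2 fold changes of members 788 kept their direction and side of the threshold. Of the rest 11 lost a call, 22 gained one and 14 changed sign, and no called value changed sign. Differences between effects that were uncalled in every setting are not in this total. The number of called members moved by over 1.5 times in 2 of the 16 comparisons of groups, given next. It also moved in single tests of a difference between effects where stated below. With a replicate block 1 member instead of 2 was called for mInhbe in epididymal fat, and without the libraries that stood apart 6 instead of 3 for HFD over chow in KO subcutaneous fat, where Adora1, Npy1r and Sucnr1 joined (0.49, -0.54 and 0.37). No comparison of groups met a rule that asked every same-numbered pair of samples to pass a correlation threshold. That rule cannot exclude that both depots came from the same mice. Epididymal libraries most like the subcutaneous library of their own number ranged from 0 of 10 (mInhbe) to 5 of 8 (WT on chow). The replicate block ended the calls of Hcar1 for mInhbe in epididymal fat (-0.86, adjusted p = 0.0886), of Ptger3 (0.82, 0.0967) and Pde3b (-0.77, 0.0552) for mInhbe by depot, which left 0 of 2 there (Npy1r, by contrast, gained a call with DESeq2 and without the libraries that stood apart), and of Adora1 for genotype by depot on HFD (0.69, 0.0608), and gave calls to Hcar1 for KO on HFD in subcutaneous fat (0.76, 0.0462) and by depot (0.85, 0.0387), to Adora1 for WT diet by depot (-0.69, 0.038) and to Ptger3 between depots of WT chow mice (0.46, 0.0085). Values that changed sign, each uncalled, were as follows. With the lymph node score for mInhbe in subcutaneous fat, Hcar2 was -0.00, Adora1 0.05 and Sucnr1 0.05. With the block, Ffar2 was -0.08 (mInhbe, epididymal), Pde3b -0.00 (KO on chow, epididymal), Npy1r -0.07 (KO on HFD, epididymal) and Adora1 0.02 (depots, mInhbe). Without the libraries that stood apart, Ffar2 was 0.11 (KO on chow, subcutaneous), Hcar2 -0.12 (diet in KO, epididymal) and Ptger3 -0.03 (depots, KO on HFD). Without those low in lymph node markers Ffar2 was 0.13 (KO on chow, subcutaneous), and with the epididymis score Ffar2 was 0.04 (KO on chow), Hcar2 -0.05 and Sucnr1 -0.03 (diet in KO), all epididymal. Genotype by diet in subcutaneous fat gave 1 member instead of 0 with DESeq2 and without the libraries that stood apart (Sucnr1). The cause of these changes was not tested. Whether depth limited the calls was not tested; Npy1r had 8 counts in its lowest library and an SE of 0.40 to 0.57 in the epididymal genotype and diet tests.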
